A study of Ovis aries with 36 samples.

Results

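The 10 genes described here encode the cytoplasmic actins, the transcription factor pair that reads the state of actin, the adhesion and crosslinking proteins that tie actin filaments to the cell surface, and the intermediate filament protein vimentin. They are ACTB, ACTG1, SRF, MRTFA, ITGA5, VCL, FLNA, ACTN1, MYH9 and VIM, out of 35223 genes in the count table, and each symbol matched 1 entry. They were chosen by symbol, with their RNA levels in Grain and Hay medium from an earlier analysis of these counts in view. Their differences between the media are therefore given as a description, without a test. All 10 passed the filter on low counts, which left 22488 genes.

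RNA was sequenced from cultured sheep cells that the labels name ovine ruminal epithelial cells, the cells that line the forestomach and absorb volatile fatty acids (VFAs). All cultures were first held for 2 h in serum-free DMEM/F12 with 100 nM dexamethasone, a glucocorticoid used to align cellular clocks. They then received a VFA medium at pH 7.2, for a stated 24 h in both media. The Grain medium contained 71.1 mM acetate, 20.1 mM propionate, 16.0 mM butyrate, 1.7 mM valerate, 1.1 mM isobutyrate and 5.3 mM isovalerate, with a stated VFA total of 115.78 mM. The Hay medium contained 60.8 mM acetate, 14.6 mM propionate, 9.2 mM butyrate, 1.2 mM valerate, 1.0 mM isobutyrate and 3.0 mM isovalerate, with a stated total of 89.79 mM. Acetate, propionate and butyrate were added as sodium salts, so sodium and VFA content cannot be told apart. Libraries were made at 24 h (T0), 28 h (T4), 32 h (T8), 36 h (T12), 40 h (T16) and 44 h (T20), 3 in each medium, for 36 in all; the event from which the hours run is unclear in the labels. Nothing in the labels tells whether the 3 replicates were grown apart or taken from different sheep. The p-values therefore rest on a library-to-library spread that may be purely technical.

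Actin exists as monomers and filaments. Free monomers hold the coactivator MRTFA in the cytoplasm, and when monomers are built into filaments MRTFA enters the nucleus and joins SRF, which switches on actin, vinculin and many other cytoskeletal genes. At focal adhesions, integrins that bind the extracellular matrix are linked through vinculin, alpha-actinin and filamin to filaments that are pulled by non-muscle myosin II.

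Library totals ran from 52.4 to 68.1 M counts, averaging 60.3 ± 3.82 M for the 18 Grain libraries and 61.4 ± 3.17 M for the 18 Hay libraries (SD). Levels are CPM, counts relative to the library total after TMM scaling, not corrected for transcript length, so they are compared between libraries and not between genes. All 10 epithelial markers were detected, with a summed level of 520 ± 131 CPM in Grain and 538 ± 28.4 CPM in Hay, and KRT14, a keratin of basal epithelium, was the highest at 205 and 119 CPM in Grain and Hay. Fibroblast markers summed to 11687 ± 2934 CPM in Grain and 14414 ± 1964 CPM in Hay, with the collagen gene COL1A2 highest. Smooth muscle markers summed to 624 ± 184 CPM in Grain and 516 ± 270 CPM in Hay. Endothelial markers summed to 7.88 ± 1.13 CPM in Grain and 8.57 ± 1.19 CPM in Hay, with KDR highest, and immune markers to 3.61 ± 0.340 CPM in Grain and 5.35 ± 0.576 CPM in Hay, with CD14 highest (SD, n = 18 each). Of these, CDH5, TIE1, PTPRC, CD3E, CD68 and CSF1R averaged under 1 CPM in both media, and PECAM1, VWF, KDR and CD14 above it. Markers of the labelled epithelial type were thus present, beside collagen and other fibroblast markers at a higher summed level; sums of different genes are not a measure of cell number. In bulk RNA, fewer cells of a type and less RNA per cell cannot be told apart.

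Averaged over the 6 harvests, RNA of 9 of the 10 genes was higher in Grain than in Hay medium, and MYH9, the heavy chain of non-muscle myosin IIA, was near equal. The largest differences were those of the cytoplasmic gamma-actin gene ACTG1, at 1.40 on the log2 scale (SE 0.018), and the filamin A gene FLNA, at 1.35 (SE 0.015). The integrin alpha5 gene ITGA5, at 1.04 (SE 0.019), and the vimentin gene VIM, at 1.04 (SE 0.014), followed. The median over the 10 genes was 0.79, beside -0.07 over all genes tested. With edgeR's quasi-likelihood test, 81.8% of all genes differed between the media at an adjusted p under 0.05, 37.9% higher and 43.9% lower in Grain. The members' 9 higher genes stand beside that background with nothing read from it, since the contrast was known when they were chosen.

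The cytoplasmic actins encode near-identical proteins that make up most of the filaments of non-muscle cells. ACTB, the beta form, ranged from 479 to 1472 CPM in Grain (median 867) and from 346 to 1064 CPM in Hay (median 525). ACTG1, the gamma form, ranged from 4608 to 7594 CPM in Grain (median 6044) and from 1510 to 3637 CPM in Hay (median 2146). All 18 Grain libraries lay above all 18 Hay libraries for ACTG1, whereas the ranges overlapped for ACTB. The mean difference for ACTB was 0.54 (SE 0.019). Actin genes share coding sequence, so reads may be split between copies in a way that depends on the counting, and the levels of both are uncertain to that extent.

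SRF binds the CArG box of cytoskeletal promoters, and MRTFA is its actin-sensing partner. SRF ranged from 24.2 to 52.9 CPM in Grain (median 36.5) and from 18.4 to 25.6 CPM in Hay (median 20.0), a mean difference of 0.83 (SE 0.023). MRTFA ranged from 35.3 to 55.7 CPM in Grain (median 44.3) and from 23.5 to 33.0 CPM in Hay (median 26.6), a mean difference of 0.75 (SE 0.025). The MRTFA libraries of the media did not overlap, and the SRF ranges overlapped, since the lowest Grain libraries, those of T8, reached the level of the highest Hay libraries, those of T12. MRTFA overlaps SGSM3 and 2 unnamed genes in a RefSeq annotation. Those genes held 86788 counts against 77492 for MRTFA, so with a kit that does not keep strand its level is uncertain.

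ITGA5 encodes the alpha chain of the fibronectin receptor. It ranged from 84.2 to 304 CPM in Grain (median 172) and from 48.2 to 138 CPM in Hay (median 76.9). VCL encodes vinculin, which joins talin and actin at adhesions, and ranged from 245 to 532 CPM in Grain (median 370) and from 198 to 311 CPM in Hay (median 226), a mean difference of 0.61 (SE 0.011). For both genes, Grain was above Hay within each harvest although the full ranges overlapped.

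FLNA crosslinks filaments and binds integrin tails, and its levels did not overlap between the media, with 434 to 859 CPM in Grain (median 647) and 157 to 399 CPM in Hay (median 232). ACTN1, alpha-actinin 1, bundles filaments at adhesions and differed by 0.59 (SE 0.013), with 195 to 325 CPM in Grain (median 251) and 145 to 207 CPM in Hay (median 161). MYH9 ranged from 330 to 597 CPM in Grain (median 440) and from 354 to 514 CPM in Hay (median 412), a difference of 0.03 (SE 0.017). VIM, the intermediate filament of mesenchymal and many cultured cells, stood at 11404 to 14906 CPM in Grain (median 13235) and 5716 to 6800 CPM in Hay (median 6394), with no overlap. The sign for MYH9 is not fixed: it was -0.09 when counts were scaled by library size only, a setting that moved the median of all genes by -0.12. The other 9 genes stayed above 0 under the 3 scalings compared. ITGA5, ACTN1 and MYH9 also overlap other annotated genes, which held 7569, 2170 and 19107 counts against their own 279282, 452460 and 951096.

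**Figure D1:**
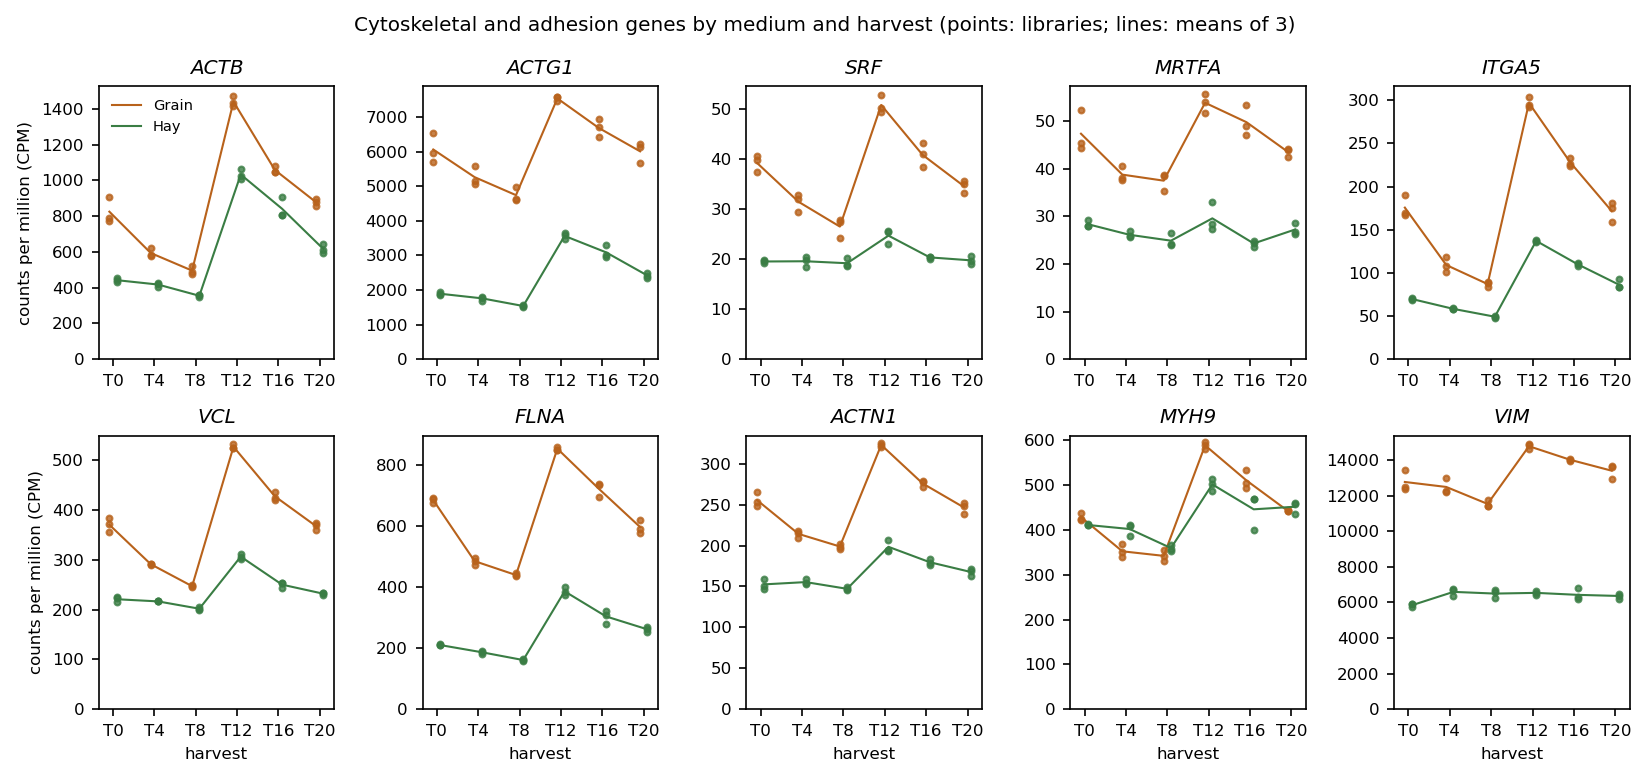
Level of each gene in CPM (vertical axes from 0) against harvest T0 to T20. Points are single libraries, lines join the means of 3 libraries, with Grain in orange and Hay in green. In Grain all 10 genes had their lowest mean at T8 and their highest at T12; in Hay, VIM stayed between 5716 and 6800 CPM without that step.

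Taking each harvest on its own, all 3 Grain libraries were above all 3 Hay libraries at each of the 6 harvests for 9 genes, and for MYH9 at 3 harvests, with the reverse order at T4. Genes with libraries apart in this way were not counted over the whole table. The share of all genes called higher in Grain by edgeR, a different measure, was 31.6% at T0, 29.9% at T4 and 29.5% at T8. It was 30.7% at T12, 30.2% at T16 and 29.7% at T20. The size of the difference was not constant. For ACTG1 it was 1.68 at T0, 1.58 at T4, 1.62 at T8, 1.08 at T12, 1.11 at T16 and 1.31 at T20. FLNA followed a similar course, with 1.71 at T0, 1.45 at T8 and 1.14 at T12. VCL ran the other way between T8 and T12, with 0.29 at T8 and 0.78 at T12, as did SRF, with 0.47 at T8 and 1.04 at T12. MYH9 had -0.19 at T4 and 0.23 at T12, but with library size only the T12 value was 0.04 and the T4 value -0.27, so its positive side depended on the scaling. ACTB was largest at T0, at 0.90, and between 0.33 and 0.51 at the later harvests, although library size only gave 0.29 at T12 and 0.18 at T16, against 0.48 and 0.33.

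In the same edgeR fit, 5 contrasts asked across all genes whether the media difference depended on harvest. The 10 genes were all past the threshold, where 32.6% of all genes were. The levels in both media were in view when the genes were chosen, so that count is a description with nothing read from it. The largest difference exceeded the smallest by between 0.31 log2 units for ACTN1 and 0.60 for ACTG1.

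**Figure D2:**
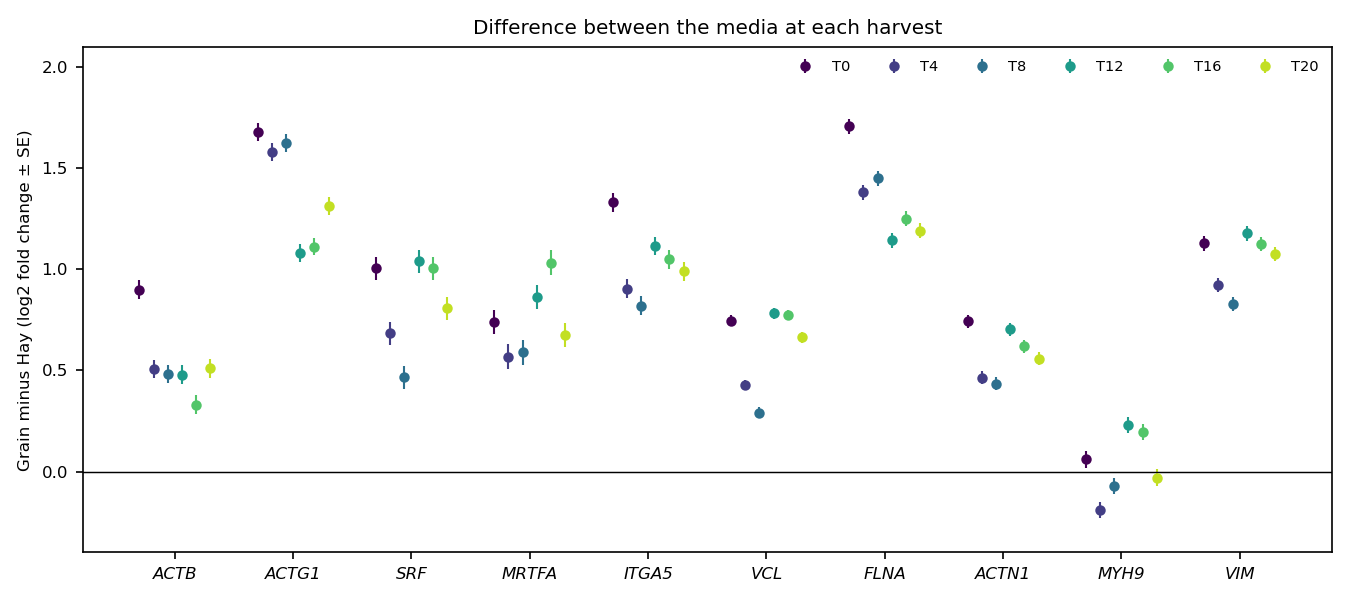
Grain minus Hay log2 fold change of each gene at T0 to T20 (colours from dark to light), with error bars of 1 SE from the edgeR fit over 36 libraries. ACTG1 and FLNA were highest at T0 to T8, VCL and SRF had their lowest value at T8, and MYH9 lay on both sides of 0 with TMM scaling.

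Within each medium, the level changed over the 6 harvests for all 10 genes in Grain and for all 10 in Hay, where 51.5% and 35.2% of all genes passed the same edgeR test in Grain and Hay. The levels at these harvests, too, were known when the genes were chosen, so these p-values and those for the step and the cosine are not independent of the choice, and nothing is read from the members' shares. In Grain the adjusted p ranged from 5.65e-27 for VCL to 2.32e-09 for MRTFA. In Hay it ranged from 7.99e-26 for ACTB to 0.00148 for MRTFA. In Grain the mean of all 10 genes was lower at each harvest to T8, highest at T12 and lower again at T16 and T20. Single libraries overlapped there between T4 and T8 for MRTFA and MYH9, between T12 and T16 for MRTFA and between T0 and T4 for VIM. Genes with such a course were not counted over the whole table. In Hay 8 genes were lowest at T8 and 9 highest at T12, and ACTB, ACTG1, ITGA5, VCL and FLNA had means that declined to T8 and again after T12 there as well. SRF libraries of T0, T4 and T8 overlapped in Hay, with means of 19.5, 19.6 and 19.2 CPM at T0, T4 and T8. ACTN1 had 153 CPM at T0 and 155 CPM at T4 in Hay, and MYH9 had 446 CPM at T16 and 452 CPM at T20. The exceptions to the lowest and highest harvests in Hay were MRTFA, lowest at T16, and VIM, lowest at T0 and highest at T4.

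The order of the harvests, from high to low, was T12, T16, T20, T0, T4 and T8 for ACTB in both media. In Hay the libraries of neighbouring harvests in this kind of order did not overlap for ACTB, ACTG1, ITGA5 or FLNA. In Grain the same held for FLNA, and for ACTB T20 and T0 overlapped. At the other end, all 5 neighbouring pairs overlapped for MRTFA in Hay and 4 of 5 for SRF and VIM in Hay. Overlaps of neighbouring harvests were not counted over the whole table, so nothing is read from them about these genes.

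The step between T8 and T12 was chosen as a contrast after the courses had been seen, so its p-values do not allow for that choice. ITGA5 had 304, 292 and 295 CPM at T12 against 89.2, 84.2 and 87.8 CPM at T8 in Grain, and 137, 136 and 138 CPM at T12 against 49.4, 50.2 and 48.2 CPM at T8 in Hay. ACTB had 1433, 1417 and 1472 CPM at T12 against 520, 479 and 487 CPM at T8 in Grain, and 1025, 1064 and 1009 CPM at T12 against 360, 359 and 346 CPM at T8 in Hay. For both genes the T12 and T8 libraries were far apart in both media, by 3.41-fold in Grain and 2.78-fold in Hay for ITGA5 and by 2.91-fold in both for ACTB. On the log2 scale the ACTB step was 1.54 (SE 0.046) in Grain and 1.54 (SE 0.046) in Hay.

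All 10 genes rose between T8 and T12 in Grain, where 23.5% of all genes rose and 26.5% fell, and the median step was 0.86 over the 10 genes beside -0.06 over all genes. In Hay 9 rose, where 19.6% of all genes rose and 16.4% fell, with a median of 0.54 beside -0.04. VIM was the exception in Hay, with a step of 0.01 (SE 0.034, edgeR adjusted p = 0.884). It had 6405, 6666 and 6535 CPM at T12 and 6671, 6576 and 6239 CPM at T8 in Hay, which overlapped. In Grain VIM had 14906, 14602 and 14835 CPM at T12 against 11785, 11404 and 11420 CPM at T8, without overlap. Scaling by library size only took the median of all genes in the step to -0.34 in Grain and -0.17 in Hay. VIM then stepped by 0.08 in Grain (edgeR adjusted p = 0.0195) and by -0.12 in Hay (edgeR adjusted p = 0.000826), and the MRTFA step in Hay was lost (edgeR adjusted p = 0.138). Other called steps that moved by over 1.5 times were those in Grain of ACTG1 (0.39, against 0.67 with TMM), MRTFA (0.24 against 0.52), ACTN1 (0.42 against 0.70) and MYH9 (0.50 against 0.78), and that of SRF in Hay (0.23 against 0.36).

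The step difference between the media was past the threshold for 9 of the 10 genes, where 32.5% of all genes did so, 14.4% with a higher value in Grain and 18.1% with a lower one. SRF had 49.4, 52.9 and 50.1 CPM at T12 against 27.4, 24.2 and 27.9 CPM at T8 in Grain, and 23.0, 25.5 and 25.6 CPM at T12 against 20.3, 18.8 and 18.6 CPM at T8 in Hay. The libraries were apart in both media, but the step was 0.94 (SE 0.056) in Grain and 0.36 (SE 0.057) in Hay, a difference of 0.57 (SE 0.080). VCL had 532, 524 and 525 CPM at T12 against 250, 246 and 245 CPM at T8 in Grain, and 311, 306 and 302 CPM at T12 against 205, 201 and 198 CPM at T8 in Hay. Its step was 1.09 (SE 0.026) in Grain and 0.60 (SE 0.026) in Hay. MYH9 and ACTN1 were likewise steeper in Grain, by 0.30 (SE 0.058) and 0.27 (SE 0.045), as were VIM, by 0.35 (SE 0.049), and ITGA5, by 0.29 (SE 0.066). With library size only the ACTN1 difference was 0.12 and that of VIM 0.20.

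ACTG1 and FLNA went the other way. ACTG1 had 7452, 7594 and 7570 CPM at T12 against 4983, 4639 and 4608 CPM at T8 in Grain, and 3591, 3637 and 3468 CPM at T12 against 1561, 1547 and 1510 CPM at T8 in Hay. Its step was 0.67 (SE 0.044) in Grain and 1.21 (SE 0.044) in Hay, a difference of -0.54 (SE 0.062, edgeR adjusted p = 7.54e-09). FLNA had 849, 859 and 848 CPM at T12 against 444, 437 and 434 CPM at T8 in Grain, and 383, 399 and 374 CPM at T12 against 164, 157 and 160 CPM at T8 in Hay. Its step was 0.96 (SE 0.036) in Grain and 1.26 (SE 0.037) in Hay. For both, the lower medium had the steeper step. The step difference of ACTB was -0.00 (SE 0.064, edgeR adjusted p = 0.994). That p does not show equal steps, and under scaling by library size only the difference was -0.15 (edgeR adjusted p = 0.0318). That scaling also lost the step difference of ITGA5 (edgeR adjusted p = 0.0732), MYH9 (0.0542) and MRTFA (0.295). The MRTFA difference of 0.27 (edgeR adjusted p = 0.0119) was lost as well without Hay T8 replicate 1 (0.0607) or Hay T12 replicate 1 (0.0635).

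Summed cell-type markers also differed between T12 and T8. Fibroblast markers stood at 16877 CPM at T12 and 8165 CPM at T8 in Grain, and at 17459 CPM at T12 and 11700 CPM at T8 in Hay. Smooth muscle markers, which include the SRF targets ACTA2 and TAGLN, stood at 943 CPM at T12 and 418 CPM at T8 in Grain, and at 972 CPM at T12 and 223 CPM at T8 in Hay. Epithelial markers stood at 735 CPM at T12 and 364 CPM at T8 in Grain, and at 580 CPM at T12 and 511 CPM at T8 in Hay. Endothelial markers were lower at T12, with 6.18 CPM at T12 and 8.86 CPM at T8 in Grain, and 7.71 CPM at T12 and 10.0 CPM at T8 in Hay. Immune markers stood at 3.12 CPM at T12 and 3.87 CPM at T8 in Grain, and at 5.62 CPM at T12 and 4.75 CPM at T8 in Hay. The part of these markers in the step of the 10 genes was not tested.

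**Figure D3:**
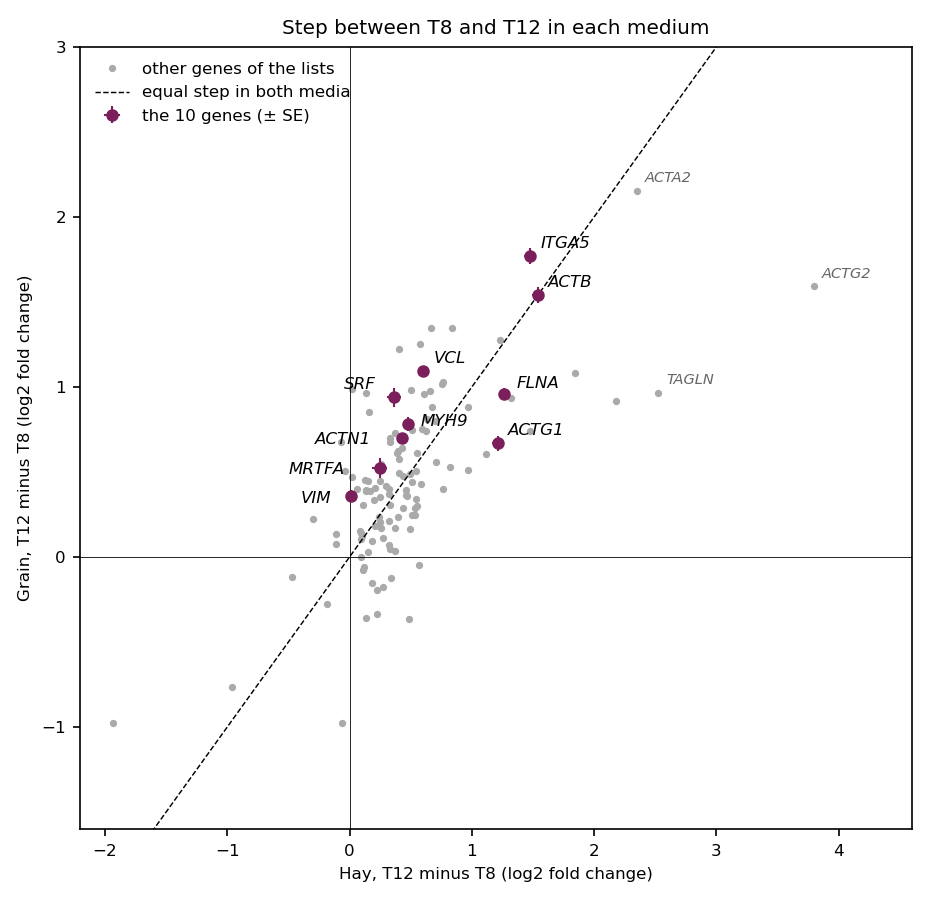
Log2 fold change between T12 and T8 in Grain (vertical axis) against Hay (horizontal axis). Purple points are the 10 genes with bars of 1 SE, grey points the other genes of the related lists, and the dashed line marks equal steps. ACTB lies on the line at 1.54, ACTG1 and FLNA below it, and VIM at 0.01 in Hay and 0.36 in Grain.

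The ratio of ACTG1 to ACTB counts within a library does not depend on scaling. It was 7.37 ± 1.52 in Grain (5.14 to 9.68) and 3.98 ± 0.340 in Hay (3.42 to 4.37; SD, n = 18 each), so the media did not overlap. In Grain the mean ratio was 7.36 at T0, 8.86 at T4, 9.57 at T8, 5.24 at T12, 6.32 at T16 and 6.85 at T20. In Hay it was 4.28 at T0, 4.22 at T4, 4.34 at T8, 3.45 at T12, 3.68 at T16 and 3.93 at T20. The ratio dropped between T8 and T12 in both media, with the 3 libraries of each harvest apart. On the log2 scale the mean difference between the media was 0.86.

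**Figure D4:**
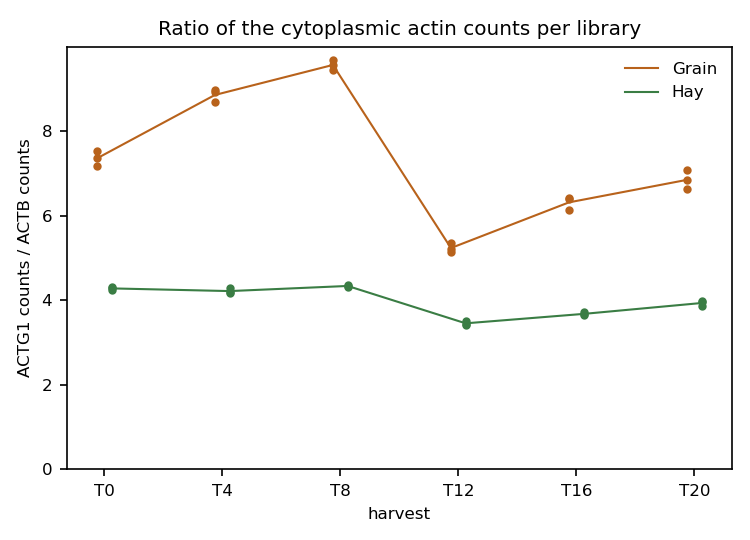
Ratio of ACTG1 to ACTB counts (vertical axis from 0) against harvest T0 to T20 in Grain (orange) and Hay (green). Points are single libraries and lines join means of 3. The Grain ratio spans 5.14 to 9.68 and the Hay ratio 3.42 to 4.37.

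A cosine of 24 h period was fitted in each medium, since the series asks about circadian expression, although 6 harvests over 20 h cover less than 1 cycle. It passed the edgeR test for 10 genes in Grain and 5 in Hay, beside 31.8% and 20.7% of all genes in Grain and Hay. The 5 in Hay were ACTB, ACTG1, ITGA5, FLNA and ACTN1. ITGA5 had the largest amplitude in Grain, 0.64 (SE 0.12), with 0.61 (SE 0.12) in Hay, and ACTB had 0.55 (SE 0.11) in Grain and 0.68 (SE 0.10) in Hay. Fitted peaks lay between 15.6 and 16.3 h after T0 in Grain and between 14.7 and 15.5 h for the 5 genes in Hay, later than the harvest with the highest mean, T12. The cosine took up 35.8% to 66.1% of the variation between harvest means in Grain and 2.33% to 75.3% in Hay, so the sharp rise was only partly described by it. Under scaling by library size only, ACTG1, MRTFA and VIM no longer passed in Grain. In Hay, MYH9 (edgeR adjusted p = 0.0581) and VCL (0.0636) lay near the threshold. MYH9 passed without Grain T8 replicate 1 or 2, Grain T12 replicate 1 or 2, or Hay T16 replicate 3 (edgeR adjusted p 0.0234 to 0.0495). VCL passed without Grain T8 replicate 2 or 3 (edgeR adjusted p 0.0482 and 0.0479). With DESeq2 in place of edgeR, 6 genes passed in Hay, MYH9 among them (likelihood ratio test, adjusted p = 0.0458). Over all genes, 5237 passed there with DESeq2 and 4647 with edgeR. Differences in passing between the media were not tested for the cosine.

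Related genes are counted as higher, lower, rising or falling at an edgeR adjusted p under 0.05. Their lists were chosen with earlier results of these data known, so the counts are given as a description. Over all genes, 37.9% were higher and 43.9% lower in Grain. Fibronectin and the partner of ITGA5 come first. ITGB1, the beta1 chain that pairs with ITGA5, averaged 2897 ± 677 CPM in Grain and 1911 ± 312 CPM in Hay (SD, n = 18 each), and was higher in Grain by 0.58 (SE 0.013). FN1, the fibronectin that the pair binds, was higher in Grain by 0.31 (SE 0.012). Between T8 and T12 ITGB1 rose by 0.98 in Grain and 0.66 in Hay, and FN1 by 0.73 and 0.37 in Grain and Hay. Of the 8 fibronectin receptor and ligand genes, 5 were higher and 3 lower in Grain. ITGAV was lower, at -0.52 (SE 0.011), and ITGB5 higher by 0.84 (SE 0.023).

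Of 21 known MRTF-SRF target genes, 15 were higher in Grain, 5 lower and 1 not past the threshold, with a median of 0.58 beside -0.07 over all genes. TPM2, a tropomyosin that coats filaments, was higher by 1.60 (SE 0.024), FHL1, a LIM protein, by 1.54 (SE 0.022) and FLNC, a filamin of muscle, by 1.27 (SE 0.018). In the step from T8 to T12, 20 of the 21 rose in Grain and 21 rose in Hay, beside 23.5% and 19.6% of all genes. The targets were not uniform in size: TPM2 stepped by 0.92 in Grain and 2.18 in Hay. All 6 SRF cofactors were higher in Grain with TMM scaling, and 4 with library size only, where MRTFB, a relative of MRTFA, was -0.0062 against 0.12. They include SCAI, which inhibits MRTFA, higher by 1.15 (SE 0.024), ELK1 by 0.50 (SE 0.020) and ELK4 by 0.44 (SE 0.018).

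Of 5 other actin genes, ACTA1 of skeletal muscle was higher in Grain by 1.13 (SE 0.051) and ACTG2 of smooth muscle by 1.55 (SE 0.028). ACTA2 of smooth muscle was lower, at -0.69 (SE 0.019) and ACTC1 of heart at -0.99 (SE 0.063). ACTBL2 was also called lower, but at 0.02 CPM in Grain and 0.23 CPM in Hay no fold is given. ACTA2 rose by 2.16 between T8 and T12 in Grain and by 2.35 in Hay, and ACTG2 by 1.59 in Grain and 3.80 in Hay, where it started from low levels and overlaps another gene.

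Of 21 focal adhesion plaque genes, 15 were higher and 6 lower in Grain, with a median of 0.52. GIT1, a scaffold that recruits paxillin partners, was higher by 1.49 (SE 0.026), LIMS1, the integrin-linked kinase partner PINCH1, by 0.58 (SE 0.014) and FBLIM1, the filamin-binding migfilin, by 0.82 (SE 0.025). Genes of actin assembly and turnover were split: of 32, 15 were higher, 16 lower and 1 not past the threshold, with a median of -0.05. WASF2, which activates the Arp2/3 complex, was higher by 1.08 (SE 0.018), whereas CTTN, which stabilises branched actin, was lower, at -1.09 (SE 0.022) and PFN2, a profilin that feeds monomers to filaments, was lower, at 59.1 ± 4.24 CPM in Grain and 118 ± 12.9 CPM in Hay (SD, n = 18 each). In the step 26 of the 32 rose and 2 fell in Grain, and 28 rose and 2 fell in Hay.

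Of 15 crosslinkers and membrane linkers, 8 were higher and 7 lower, with PALLD, a stress fibre scaffold, higher by 0.87 (SE 0.013) and LIMA1, the filament-stabilising EPLIN, lower, at -0.81 (SE 0.013). Of 11 intermediate filament genes, 6 were higher and 5 lower: DES, the muscle filament desmin, was higher by 3.12 (SE 0.035), KRT8 of simple epithelium lower, at -1.22 (SE 0.025) and NEFL of neurons lower, at -3.13 (SE 0.055). ELK1, WASF2, CTTN, ITGB1, PALLD, LIMA1 and ACTG2 overlap other annotated genes, and their counts are uncertain to that extent. The overlapping genes held 32751 counts against 110501 for ELK1 and 25241 against 123496 for WASF2. They held 12543 against 414160 for PALLD, 2672 against 142375 for CTTN and 10820 against 5179028 for ITGB1. For ACTG2 they held 404 against 122121, and for LIMA1 406 against 493744. Over the 111 distinct genes of the 7 lists other than the actin genes, 67 were higher, 42 lower and 2 not past the threshold, with a median of 0.16. In the step, 89 rose and 11 fell in Grain (median 0.40), and 89 rose and 6 fell in Hay (median 0.37). These counts depended on scaling. With library size only, 56 of the 111 were higher in Grain, 45 lower and 10 not past the threshold (median 0.04), and in the step 57 rose and 28 fell in Grain (median 0.12) and 71 rose and 11 fell in Hay (median 0.24). Under it the MRTF-SRF targets had 15 higher and 6 lower genes in Grain, with 18 rising in the Grain step and 20 in the Hay step. Of the SRF cofactors, 4 rose and 1 fell in the Grain step with TMM, against 1 rising and 2 falling with library size only. Under that scaling the focal adhesion plaque genes had 12 higher and 7 lower, and 5 rising and 5 falling in the Grain step; the actin assembly genes had 14 rising and 10 falling there, against 20 rising and 3 falling in the Hay step. The sign of the Grain step turned for LIMS1 (0.24, or -0.04 with library size only), SCAI (0.22 or -0.06) and ITGAV (0.14 or -0.14).

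**Figure D5:**
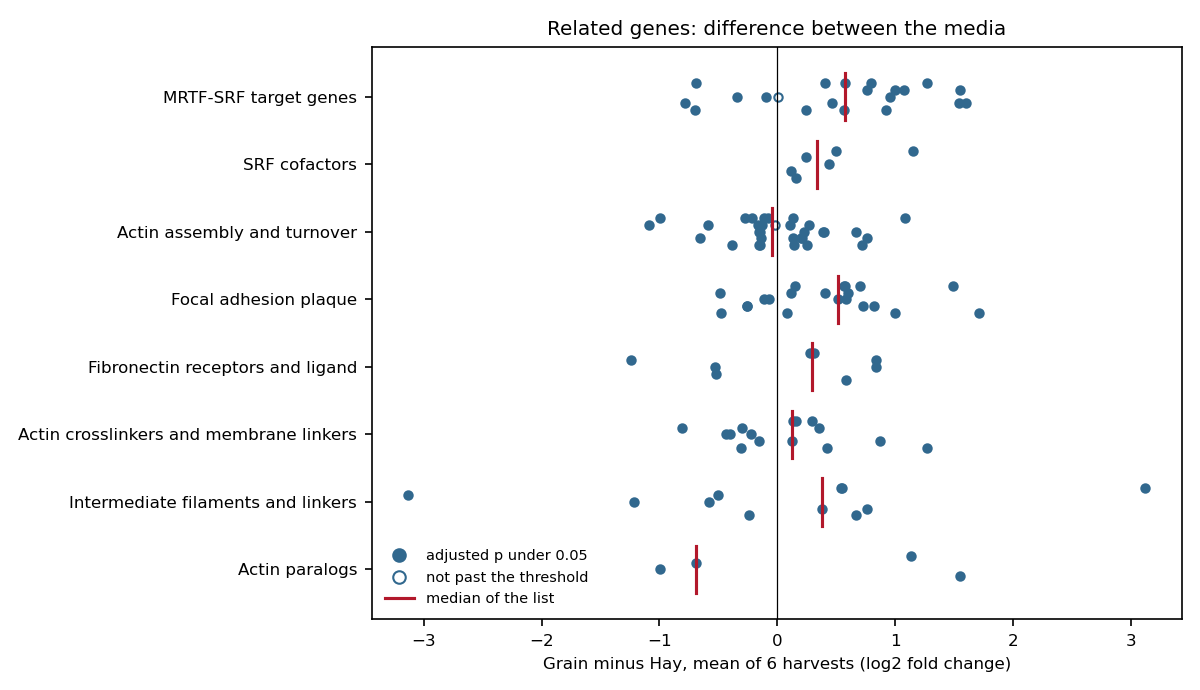
Grain minus Hay log2 fold change, averaged over 6 harvests, for the genes of each related list (points), with the list median as a red line. Filled points are past an adjusted p of 0.05 and open points are not; ACTBL2 is not drawn but counts in the median of the actin paralogs. The MRTF-SRF targets have a median of 0.58 and the actin assembly genes one of -0.05.

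The members' courses were also compared with each other and with all other genes, over 12 group means of log2 CPM after the mean of each medium was removed. These correlations share libraries and scaling, and are given as description. Between members they ran from 0.46 for ACTG1 with VIM to 0.99 for ACTN1 with VCL. The genes closest to ACTB were the tropomyosin gene TPM4 (r = 0.995), CD63 (r = 0.995) and ACTA2 (r = 0.995). The closest to SRF were PPFIBP1 (r = 0.989), HK2 (r = 0.988) and EIF4A1 (r = 0.984), and the closest to VIM were BUB1B (r = 0.985), HSPA8 (r = 0.981) and ZNF664 (r = 0.970), all 6 of which overlap other annotated genes.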

How the data were processed

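Per the labels' protocols, TRNzol-extracted RNA went into TruSeq RNA v2 libraries, a kit that does not mark strand, and was read as pairs on an Illumina NovaSeq. The deposited table holds raw read counts per gene made by the authors. HISAT2 2.2.1, SAMtools 1.20 and StringTie 2.1.5 are listed in the submitters' processing notes, and the genome build is not given in the sources used here. A RefSeq table of assembly ARS-UI_Ramb_v3.0 was used for names and overlaps only. Low counts were removed with filterByExpr (minimum count 10, minimum total 15) and counts were scaled by TMM. All 36 libraries were fitted with 12 group means in edgeR 4.0.16 (limma 3.58.1, R 4.3.3). The cosine was tested in a separate fit, with a mean, a cosine and a sine for each medium. In that fit, departures of the harvest means from a cosine count as spread. Tests were two-sided quasi-likelihood F tests with Benjamini-Hochberg adjustment over 22488 genes and a threshold of 0.05. The procedure was tested on simulated data.

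The members and lists were chosen with earlier results of these data known. Besides the members, ITGB1, FN1 and the actin paralogs were named. So were up to 3 genes per list with the smallest p for the mean difference and at least 5 CPM in a medium, and for ACTB, SRF and VIM the 3 most correlated genes. Others named as examples were chosen after their values were seen. Replicate pairs differed by more than sampling noise, with chi-square per degree of freedom from 4.85 to 25.7 in 36 pairs. Alternatives were DESeq2 1.42.0, DESeq2 size factors, no filter, a replicate block, leaving out each library and, added after seeing the data, library size only, no T12 libraries and the T12 minus T8 contrasts. A further list of related genes is not reported here.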

Additional observations from a re-analysis of the deposited data

Results flagged for a closer look

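For all 10 genes the difference between Grain and Hay depended on the time of harvest, by edgeR's test of 5 contrasts. Their levels in both media at these harvests were in view when the genes were chosen, so the p-values carry that choice and are given as a description. The adjusted p was 3.83e-14 for VCL, 3.7e-11 for ACTG1, 1.68e-10 for FLNA and 2.29e-07 for ACTB. It was 5.47e-07 for SRF, 6.19e-07 for VIM, 6.37e-07 for MYH9 and 8.59e-07 for ACTN1. It was 1.43e-06 for ITGA5 and 0.000188 for MRTFA. Over all genes 32.6% passed the same test, and the call held for each of the 10 genes without any single library.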

How the results depend on the processing

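No difference of the 10 genes that was called in the main fit reversed under the settings tried. Some not called there changed sign, such as the mean difference of MYH9 (0.03, or -0.09 with library size only). Among the named genes of the related lists, some called signs turned with library size only. The Grain step of ITGAV was past the threshold with both signs (0.14 or -0.14). Those of LIMS1 (0.24 or -0.04) and SCAI (0.22 or -0.06) turned to values not past it. The same held for the Hay step of ITGAV (0.09 or -0.04) and the mean difference of MRTFB (0.12 or -0.0062). Without the T12 libraries, a setting chosen after seeing the data, 8 of the 10 genes passed the 24 h cosine in Hay (5 with them). Over all genes, 4248 passed that cosine (4647 with them). For change with harvest in Hay, 9 of the 10 genes passed (10 with them), beside 5089 of all genes (7927 with them). The cause was not tested. SRF then no longer changed with harvest in Hay (edgeR adjusted p = 0.85); no value can be given for T12 or for the step. Counts of the other actin genes added to ACTB, to ACTG1 or to both gave log2 ratio differences of 1.04, 0.77 and 0.94 beside 0.86; reads exchanged between ACTB and ACTG1 themselves are not covered by these values. Leaving out each library in turn left 5 to 7 of the 10 genes past the cosine test in Hay, beside 3895 to 4756 of all genes. It left 8 or 9 past the step difference, beside 6744 to 7418 of all genes. The replicate block gave 18362 genes for the mean difference beside 18388, and 11494 for harvest in Grain beside 11579. Deviations of 198 same-numbered pairs had a median correlation of 0.00129 (-0.0416 to 0.0409), so no broad deviation shared by number was seen. These correlations do not tell whether same-numbered libraries came from the same culture or sheep. With 3 libraries per group, their number limits the precision. PCR reads without molecular identifiers are not independent molecules.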
